A study of Mus musculus with 9 samples.

Results

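Small heat shock proteins are chaperones that hold unfolding client proteins in a refoldable state without using ATP, and in striated muscle they associate with desmin, titin, filamin and actin at the Z-disc. BAG3 is a co-chaperone that joins HSPB8 and HSP70 in 1 complex, which hands damaged filamin and other clients to the ubiquitin ligase CHIP and to autophagy, a route called chaperone-assisted selective autophagy. Transcription of many of these genes is induced by the heat shock factor HSF1, which binds inverted repeats of the unit GAA, and by muscle transcription factors. The 8 genes described here are Bag3 and the small heat shock genes Hspb1, Hspb2, Hspb3, Hspb6, Hspb7, Hspb8 and Cryab. They were chosen by gene symbol, with the fold changes of this comparison already known, so their fold changes are given as a description, without p-values. Where the text says that a member was called, it repeats the outcome of the fit over all genes and is not offered as evidence for the member. All 8 were found among the 55536 annotated genes, and all 8 were among the 16039 genes that passed the filter on low counts.

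Bulk RNA sequencing was done on the quadriceps of C57BL/6 mice aged 6 weeks in which a piece of the muscle had been removed, an injury called volumetric muscle loss. Libraries labelled Il17ra-/-, meant to come from mice that lack the interleukin 17 receptor A gene, numbered 5, and wild type libraries numbered 4. All of these animals had the injury, and genotype was the only label that differed between the groups. The sample labels give saline as the material and harvest 1 week after surgery, while the extraction text gives PCL and collection 6 weeks after surgery, so the material and the time cannot be settled from the labels. The labels name neither the allele nor a promoter that limits the deletion to a cell type. The design text speaks of triplicate animals, and no label ties a library to an animal, so the spread between libraries may be partly technical.

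The libraries labelled Il17ra-/- held 35221211 to 46435401 counts each, against 31294089 to 37580589 in each wild type library. Levels are given in CPM, a count scaled to the depth of its library (counts per 1000000). Il17ra itself averaged 208 ± 43.2 CPM in libraries labelled Il17ra-/- and 96.8 ± 19.7 CPM in wild type libraries (SD, n = 5 and 4), which goes against the genotype label. Its log2 fold change was 1.11 (SE 0.17), and since counts cover all exons and the labels do not say which exons the allele removes, the libraries are called by their labels throughout and every direction rests on those labels. In a principal component analysis the first component (35.0% of the variance) set wild type replicate 2 apart, and the second (17.9%) set Il17ra-/- replicate 1 apart, and counts of called genes are given with and without these libraries. Genes of skeletal muscle fibres were present in every library, but the 10 fibroblast markers summed to 49242 to 68340 CPM in libraries labelled Il17ra-/- and 59117 to 65201 CPM in wild type libraries, while the 18 fibre genes summed to 4015 to 5281 CPM in libraries labelled Il17ra-/- and 1420 to 3540 CPM in wild type libraries. The leukocyte marker Ptprc averaged 0.266 ± 0.171 CPM in libraries labelled Il17ra-/- and 0.112 ± 0.121 CPM in wild type libraries. The endothelial marker Pecam1 averaged 1.34 ± 0.477 CPM in libraries labelled Il17ra-/- and 2.38 ± 0.730 CPM in wild type libraries. For the fibroblast marker Dcn these means were 12151.8 ± 1133.8 and 13176.5 ± 537.6 CPM. Ptprc and Pecam1 were thus very low beside fibroblast markers, and the 18 fibre genes summed below the 10 fibroblast markers in every library. Whether the libraries hold every cell type of the muscle was not tested. The levels given below are levels in these libraries and need not be those of whole muscle.

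Because the heat shock factor site is a known feature of these genes, the letters around their starts are shown first, from RefSeq annotation of the mouse build GRCm38.p6, as 300-base windows from 250 bases before to 50 bases after the annotated start. Windows were found for 6 of the 8 genes, 7 windows in all, since Hspb6 has 2 annotated starts. Cryab and Hspb2 had no entry. The windows of the members with separated groups of libraries and of Hspb1 are given 5′ to 3′ on the strand of the gene. Capitals mark the inverted heat shock pair GAANNTTC, in which N is any base.
Bag3 (chr7:128523333-128523632, plus strand): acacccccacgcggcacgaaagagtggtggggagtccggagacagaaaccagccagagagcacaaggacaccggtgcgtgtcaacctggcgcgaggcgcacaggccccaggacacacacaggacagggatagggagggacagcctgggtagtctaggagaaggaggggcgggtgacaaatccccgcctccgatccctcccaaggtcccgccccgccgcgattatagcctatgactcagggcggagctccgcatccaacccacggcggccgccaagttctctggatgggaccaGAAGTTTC
Hspb8 (chr5:116422815-116423114, minus strand): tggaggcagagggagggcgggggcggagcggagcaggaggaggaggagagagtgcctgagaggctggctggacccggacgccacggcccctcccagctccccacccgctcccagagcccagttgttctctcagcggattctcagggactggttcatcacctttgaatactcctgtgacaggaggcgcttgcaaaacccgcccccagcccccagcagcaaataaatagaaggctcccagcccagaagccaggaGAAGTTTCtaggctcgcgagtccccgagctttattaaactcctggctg
Hspb1 (chr5:135887669-135887968, plus strand): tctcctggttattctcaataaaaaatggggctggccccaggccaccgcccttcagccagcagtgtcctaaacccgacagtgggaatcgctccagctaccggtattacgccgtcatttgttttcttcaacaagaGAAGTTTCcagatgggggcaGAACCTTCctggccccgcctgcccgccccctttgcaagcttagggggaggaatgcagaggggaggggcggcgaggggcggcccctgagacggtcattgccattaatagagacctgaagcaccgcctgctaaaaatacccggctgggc
Hspb6, upstream start (chr7:30552290-30552589, plus strand): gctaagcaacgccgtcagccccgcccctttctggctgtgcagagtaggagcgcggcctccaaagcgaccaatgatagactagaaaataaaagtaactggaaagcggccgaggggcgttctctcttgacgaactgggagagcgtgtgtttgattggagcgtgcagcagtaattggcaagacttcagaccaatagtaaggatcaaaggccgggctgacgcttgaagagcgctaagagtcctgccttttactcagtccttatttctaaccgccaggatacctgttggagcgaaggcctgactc
Hspb6, downstream start (chr7:30553051-30553350, plus strand): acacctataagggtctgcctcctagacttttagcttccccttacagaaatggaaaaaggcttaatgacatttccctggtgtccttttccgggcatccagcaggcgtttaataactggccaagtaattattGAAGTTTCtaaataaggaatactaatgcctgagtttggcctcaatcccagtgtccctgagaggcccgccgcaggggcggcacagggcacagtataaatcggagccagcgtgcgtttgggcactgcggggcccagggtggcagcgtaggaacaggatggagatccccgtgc
Hspb7 (chr4:141420529-141420828, plus strand): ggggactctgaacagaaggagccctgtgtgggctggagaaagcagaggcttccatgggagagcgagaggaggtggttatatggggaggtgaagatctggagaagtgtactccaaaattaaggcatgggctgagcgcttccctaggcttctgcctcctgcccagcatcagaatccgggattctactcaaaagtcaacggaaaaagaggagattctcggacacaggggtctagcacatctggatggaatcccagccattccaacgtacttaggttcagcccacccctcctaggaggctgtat

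Either inverted pair, GAANNTTC or TTCNNGAA, each of which reads the same on both strands, was found in 5 of the 7 windows, against 15.1% of the 32851 promoter windows in the same table. GAANNTTC alone was found in 7.86% and TTCNNGAA alone in 8.52% of all windows. The pair lay at position 43 from the start in Bag3, at 3 in Hspb8, at −117 and −97 in Hspb1, at −120 in the downstream window of Hspb6 and at −224 in Hspb3. In Bag3, Hspb8, Hspb1 and Hspb6 one pair had the same letters, GAAGTTTC. Hspb7 and the upstream start of Hspb6 had no pair in these windows. A run of 3 alternating units, found in 0.603% of all windows, occurred in none of the 7. In Bag3 the pair ends at the last base of the window, so a further unit after it could not have been found. The muscle E-box CAGCTG (16.3% of all windows, read on both strands) and the CArG box (1.63%) had no match in the 7 windows, and the MEF2 site (3.19%) had 1, in Hspb3 at position −12. These matches describe letters in the windows and do not show that a factor was bound.

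**Figure D1:**
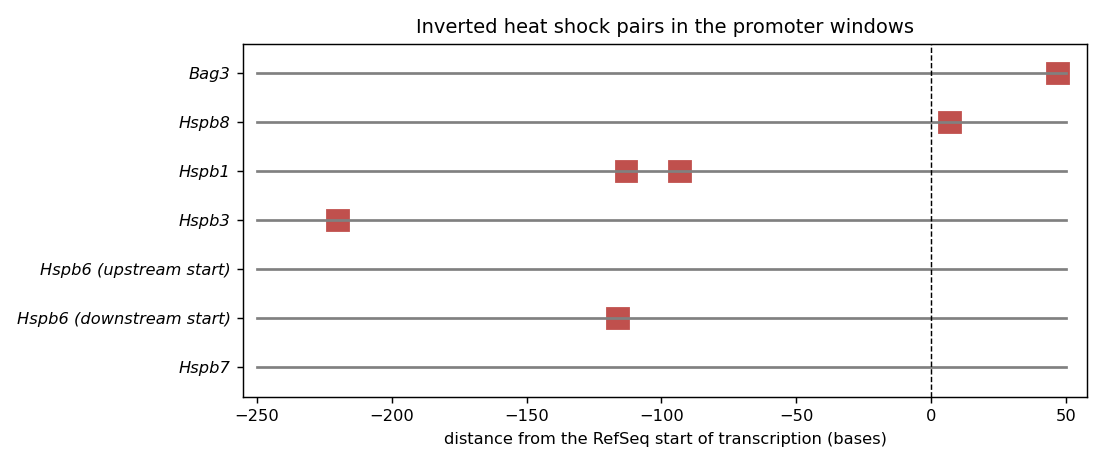
Positions of the inverted heat shock pairs (red boxes) in the 7 promoter windows, with distance in bases from the RefSeq start on the horizontal axis and 1 row per window. Pairs lie within 50 bases after the start in Bag3 and Hspb8 and upstream of it in Hspb1, Hspb3 and the downstream window of Hspb6, and the windows of Hspb7 and of the upstream start of Hspb6 hold none.

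The 8 genes moved in different directions between the groups. Bag3 was lower in libraries labelled Il17ra-/-, Hspb6 and Hspb7 were higher, and the other 5 genes were not called, where called means an adjusted p under 0.05 in edgeR's quasi-likelihood test over all genes. Thus 2 of the 8 were called higher, where 1.35% of the 16039 tested genes were, and 1 was called lower, where 1.71% were. In either direction 3.06% of tested genes were called, 217 higher and 274 lower. Scaling by library totals alone gave 330 higher and 232 lower. Bag3, Hspb8, Hspb6 and Hspb7, 4 of the 8 genes, had separated groups of values, where 9.18% of all tested genes had groups that did not overlap. Since the genes were chosen with this contrast known, nothing further is read from these counts. Without wild type replicate 2 and Il17ra-/- replicate 1 the counts were 1 higher and 1 lower among the members. Over all genes tested in that fit they were 237 higher and 287 lower. In bulk RNA, fewer cells of a type and less RNA per cell cannot be told apart.

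**Figure D2:**
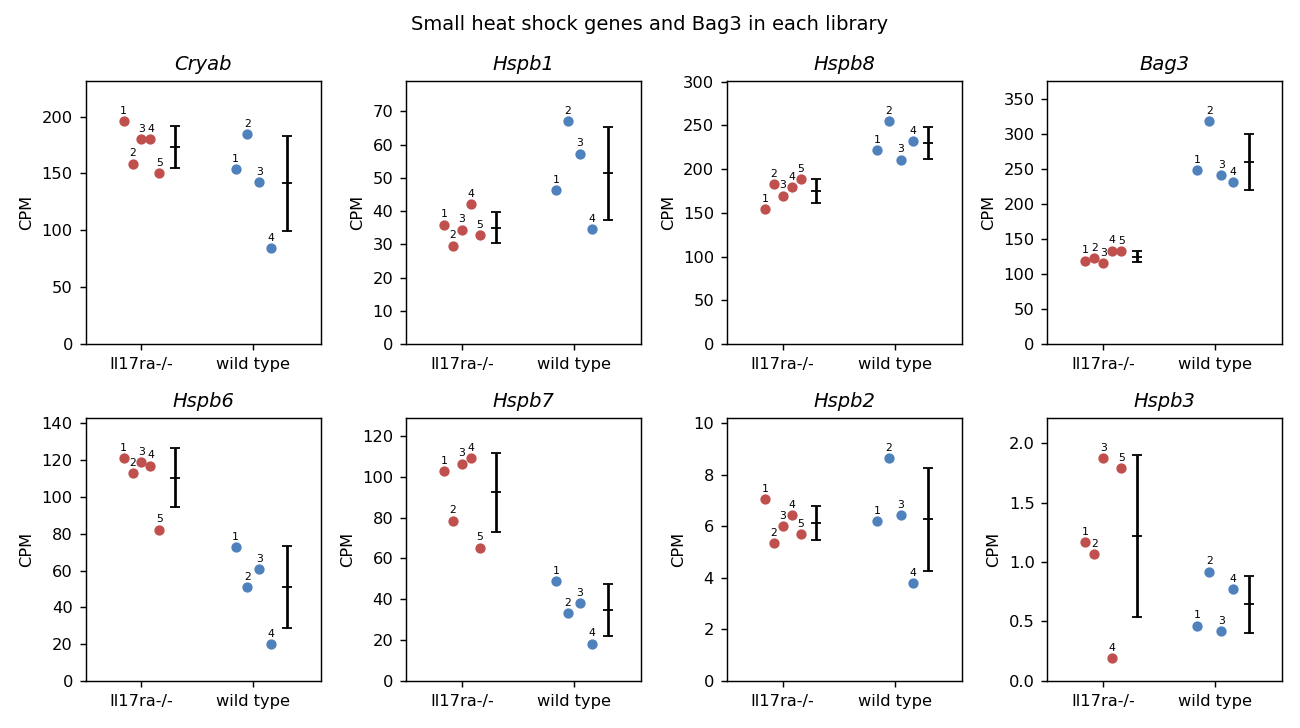
CPM of each gene (vertical axis, from 0) in every library labelled Il17ra-/- (red, left, n = 5) and every wild type library (blue, right, n = 4), with replicate numbers above the points and the mean ± SD as a black bar. Points of the groups are separated for Hspb8, Bag3, Hspb6 and Hspb7, and they overlap for Cryab, Hspb1, Hspb2 and Hspb3.

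Bag3, the co-chaperone that links HSP70 to the small heat shock proteins, had 119, 123, 116, 134 and 132 CPM in Il17ra-/- replicates 1 to 5, against 249, 318, 241 and 231 CPM in wild type replicates 1 to 4. Every library labelled Il17ra-/- was below every wild type library, and the 5 values lay close together. The means were 125 ± 7.78 CPM in libraries labelled Il17ra-/- and 260 ± 39.4 CPM in wild type libraries (SD), a log2 fold change of −1.06 (SE 0.11). Wild type replicate 2, which stood apart from the others over all genes, had the highest value, and leaving out single libraries gave −1.10 to −0.94. The gene lies at chr7:128523616-128546981 on the plus strand of GRCm38.

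Hspb8, the small heat shock protein that binds BAG3, had 154, 183, 170, 180 and 189 CPM in Il17ra-/- replicates 1 to 5, against 222, 255, 211 and 232 CPM in wild type replicates 1 to 4. The groups did not overlap, but the gap between them was smaller than for Bag3. Means were 175 ± 13.5 CPM in libraries labelled Il17ra-/- and 230 ± 18.7 CPM in wild type libraries (SD), with a log2 fold change of −0.39 (SE 0.10). The gene lies at chr5:116408491-116422864 on the minus strand.

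The partners Hspb8 and Bag3 stood in a different ratio in the 2 groups. Per kilobase of exon, Hspb8 was 1.84 ± 0.106 times Bag3 in libraries labelled Il17ra-/- (SD, range 1.70 to 1.95) and 1.17 ± 0.110 times Bag3 in wild type libraries (range 1.05 to 1.32). This ratio is taken within a library, so library scaling does not enter it. The ranges did not overlap. No background over other gene pairs was taken, so nothing further is read from this.

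Hspb1, the mouse HSP27 that binds actin and is present in most tissues, had 36.0, 29.7, 34.5, 42.1 and 32.9 CPM in Il17ra-/- replicates 1 to 5, against 46.4, 67.1, 57.4 and 34.7 CPM in wild type replicates 1 to 4. Wild type replicate 4 lay inside the range of the libraries labelled Il17ra-/-, and the other 3 wild type libraries lay above it. The log2 fold change was −0.55 (SE 0.17), and without wild type replicate 4 it was −0.70 and the gene was called. The gene lies at chr5:135887919-135889563 on the plus strand.

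Cryab, which encodes alpha B-crystallin, a chaperone of desmin, had 196, 159, 180, 180 and 150 CPM in Il17ra-/- replicates 1 to 5, against 154, 185, 142 and 84.8 CPM in wild type replicates 1 to 4. The groups overlapped in part. Wild type replicates 1 and 2 lay inside the range of the libraries labelled Il17ra-/-, and wild type replicates 3 and 4 lay below it, with replicate 4 the lowest. The log2 fold change was 0.29 (SE 0.18). Cryab lies at chr9:50751325-50756636 on the plus strand and shares 252 exon bases, 17.0% of its own, with Hspb2 on the opposite strand. The library kit does not mark strand, so reads in those shared bases cannot be assigned to either gene.

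Hspb6, also called HSP20, is a small heat shock protein abundant in skeletal, cardiac and smooth muscle. It had 121, 113, 119, 117 and 82.3 CPM in Il17ra-/- replicates 1 to 5, against 72.6, 50.9, 60.6 and 19.97 CPM in wild type replicates 1 to 4. Replicate 5 was the lowest of the libraries labelled Il17ra-/- and replicate 4 the lowest of the wild type libraries, and the groups did not overlap. Means were 110 ± 16.1 CPM in libraries labelled Il17ra-/- and 51.0 ± 22.5 CPM in wild type libraries (SD), a log2 fold change of 1.11 (SE 0.27). The call was lost without Il17ra-/- replicate 1, 2, 3 or 4 (1.08, 1.11, 1.09 and 1.09) and without wild type replicate 2 or 3 (1.12 and 1.21). It was also lost without both libraries that stood apart, at 1.08. The gene lies at chr7:30552178-30555443 on the plus strand, and 8.79% of its exon bases are shared with other genes, mostly with Proser3 on the opposite strand.

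Hspb7, a cardiac and skeletal muscle chaperone that binds filamin C, had 103, 78.5, 106, 109 and 65.3 CPM in Il17ra-/- replicates 1 to 5, against 49.1, 33.4, 38.2 and 18.2 CPM in wild type replicates 1 to 4. As for Hspb6, replicate 5 was the lowest library labelled Il17ra-/- and replicate 4 the lowest wild type library, without overlap between groups. Means were 92.4 ± 19.4 CPM in libraries labelled Il17ra-/- and 34.7 ± 12.8 CPM in wild type libraries (SD), 2.66-fold higher, with a log2 fold change of 1.41 (SE 0.24). Leaving out single libraries gave 1.20 to 1.63. The gene lies at chr4:141420779-141425311 on the plus strand.

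Hspb2 and Hspb3 encode muscle proteins that form a complex with each other, and both were low here. Hspb2 had 7.07, 5.36, 6.02, 6.43 and 5.71 CPM in Il17ra-/- replicates 1 to 5, against 6.22, 8.66, 6.43 and 3.79 CPM in wild type replicates 1 to 4. The groups overlapped throughout, and the log2 fold change was −0.036 (SE 0.24), which turned positive without wild type replicate 2 (0.16) or Il17ra-/- replicate 2 (0.0076). Hspb2 lies at chr9:50751078-50752354 on the minus strand, head to head with Cryab, and 30.2% of its exon bases are shared with it. Hspb3 had 1.17, 1.06, 1.88, 0.19 and 1.79 CPM in Il17ra-/- replicates 1 to 5, against 0.47, 0.92, 0.42 and 0.77 CPM in wild type replicates 1 to 4. These stand for 7 to 87 counts per library labelled Il17ra-/- and 15 to 28 per wild type library, and the groups overlapped, with a log2 fold change of 0.92 (SE 0.68). Il17ra-/- replicate 4, with 7 counts, lay far below the other libraries of its label, which had 46 to 87 counts. Hspb3 is a single-exon gene at chr13:113662896-113663676 on the minus strand.

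Levels of different genes are compared per kilobase of exon, with bases shared with other genes included. In libraries labelled Il17ra-/- the order was Cryab (117 CPM per kilobase), Hspb8 (89.8), Bag3 (48.8), Hspb6 (48.0), Hspb1 (34.0), Hspb7 (33.4), Hspb2 (7.33) and Hspb3 (1.56). Bag3 and Hspb6, Hspb6 and Hspb1, and Hspb1 and Hspb7 had overlapping ranges there, while the other neighbours did not overlap. In wild type libraries the order was Hspb8 (118 CPM per kilobase), Bag3 (101), Cryab (95.6), Hspb1 (49.8), Hspb6 (22.2), Hspb7 (12.5), Hspb2 (7.52) and Hspb3 (0.825). There, only Hspb1 against Hspb6 and Hspb2 against Hspb3 were neighbours without overlap. The order depends on the length used. Per kilobase of unshared exon, Cryab averaged 115 and Bag3 101 in wild type libraries. In libraries labelled Il17ra-/-, Hspb6 averaged 52.7 and Bag3 48.8 on that length, so Bag3 ranked below each of them there.

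The summed level of the 7 small heat shock genes, without Bag3, was 331 ± 23.2 CPM per kilobase in libraries labelled Il17ra-/- and 306 ± 56.3 in wild type libraries (SD), with overlapping ranges. Its makeup differed more than its sum. Hspb6 made up 14.5 ± 1.45% of the sum in libraries labelled Il17ra-/- and 7.05 ± 2.70% in wild type libraries, and Hspb7 made up 7.90 to 11.2% in libraries labelled Il17ra-/- and 2.85 to 5.53% in wild type libraries. Hspb8 made up 27.3 ± 3.77% in libraries labelled Il17ra-/- and 39.5 ± 8.08% in wild type libraries, and Hspb1 made up 10.2 ± 0.929% in libraries labelled Il17ra-/- and 16.1 ± 2.09% in wild type libraries. For these 4 genes the shares did not overlap between groups. No background over other genes was taken for such shares, and the members were chosen with this contrast known, so nothing further is read from this. Cryab, the gene with the largest share in libraries labelled Il17ra-/-, made up 35.3 ± 1.79% there and 30.7 ± 4.06% in wild type libraries, with overlap. Shares of 1 sum are tied to each other, so one that is higher lowers the rest.

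**Figure D3:**
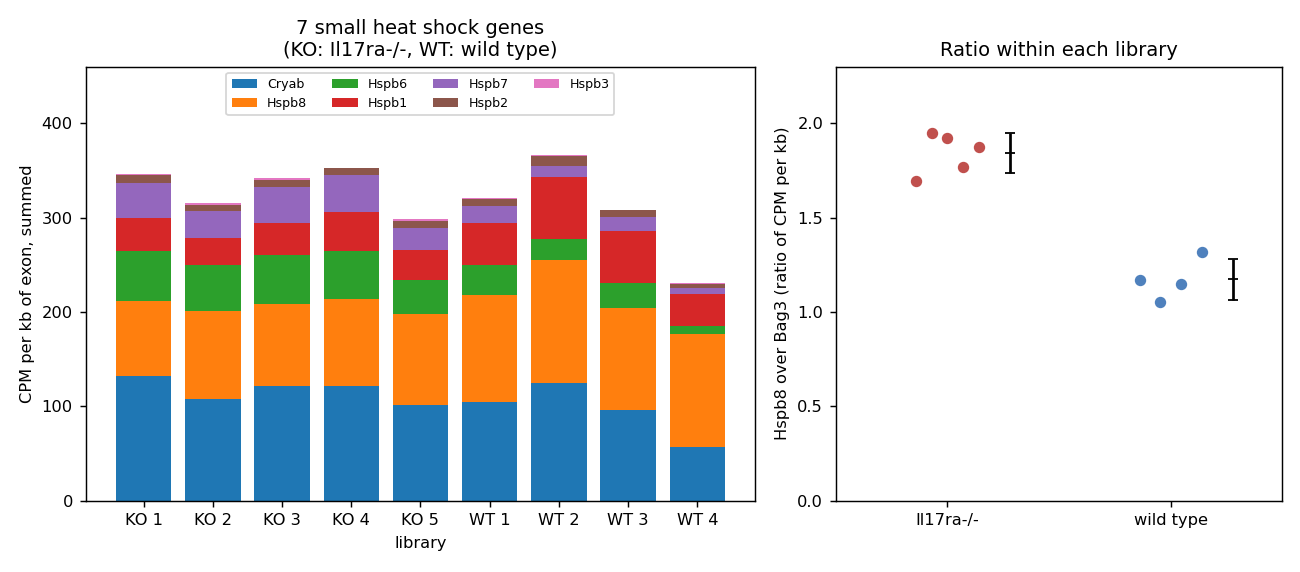
Left, the summed level of the 7 small heat shock genes in CPM per kilobase of exon, 1 stacked bar per library with the libraries labelled Il17ra-/- (KO) left of the wild type libraries (WT). Right, the ratio of Hspb8 to Bag3 per kilobase within each library with the mean ± SD, which lies between 1.70 and 1.95 in libraries labelled Il17ra-/- and between 1.05 and 1.32 in wild type libraries.

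Hspb6 and Hspb7 are muscle genes, and markers of muscle cells moved with them. Of 18 skeletal fibre genes, 9 rose in libraries labelled Il17ra-/- and none fell by edgeR's quasi-likelihood test, with a median log2 fold change of 1.00 against −0.00 over all tested genes. Acta1, the skeletal actin, averaged 1643 ± 206 CPM in libraries labelled Il17ra-/- and 856 ± 298 CPM in wild type libraries (log2 0.94, edgeR adjusted p = 0.0289). Myh7, the slow myosin, averaged 85.0 ± 22.1 CPM in libraries labelled Il17ra-/- and 10.1 ± 8.15 CPM in wild type libraries (log2 3.07, edgeR adjusted p = 0.00177). The fast-fibre myosin Myh4 had a log2 fold change of 0.33 (edgeR adjusted p = 0.415) and the creatine kinase gene Ckm one of 0.63 (edgeR adjusted p = 0.150), neither past the threshold. The slow fibre genes Tnnt1, Tnni1, Tnnc1, Myl2 and Myl3 were called, at 2.12 to 2.37, as were Mb (1.16) and Myh2 (1.95). The fast fibre genes Tnnt3, Tnni2, Tnnc2, Mylpf, Myl1 and Actn3, at 0.13 to 0.63, and Myh1 (1.07) were not. Without both libraries that stood apart 9 of the 18 again rose. Of 12 markers of smooth muscle and pericytes 6 rose and none fell (8 rose without both libraries that stood apart), and their sum was 2458 to 3207 CPM in libraries labelled Il17ra-/- and 1604 to 1870 CPM in wild type libraries. Among them the smooth muscle myosin Myh11 averaged 210 ± 38.9 CPM in libraries labelled Il17ra-/- and 97.3 ± 12.5 CPM in wild type libraries (edgeR adjusted p = 7.93e-04). The others that rose were the pericyte markers Rgs5, Notch3, Cspg4, Kcnj8 and Mcam, at log2 0.60 to 1.14. Acta2 did not pass (log2 0.44, edgeR adjusted p = 0.374). Nor did the smooth muscle genes Tagln, Cnn1, Lmod1 and Smtn, at 0.12 to 0.61, or the pericyte marker Pdgfrb (0.39). Of the other marker lists, 2 of 8 satellite cell genes (Pax7 and Cdh15) and 1 of 6 adipocyte genes (Adipoq) rose, 1 of 10 fibroblast genes (Pi16) and 1 of 5 tested leukocyte genes (Cd68) fell, and none of 6 endothelial or 6 Schwann cell genes passed edgeR's threshold. The count of called adipocyte genes was 0 without both libraries that stood apart, with limma-voom, and without each single library other than wild type replicate 3 and Il17ra-/- replicate 5, and DESeq2 called 3. That of fibroblast genes was 0 without wild type replicate 3 or Il17ra-/- replicate 1, 3 or 4, and DESeq2 called 3. Without both libraries that stood apart, 2 satellite cell genes again rose and 1 fibroblast and 1 leukocyte gene fell. The leukocyte markers summed to 8.40 to 15.7 CPM in libraries labelled Il17ra-/- and 18.8 to 35.5 CPM in wild type libraries. Cd68 alone averaged 2.58 CPM in libraries labelled Il17ra-/- and 17.9 CPM in wild type libraries. Ptprc, Adgre1 and Csf1r had log2 fold changes of 1.20, 0.93 and 0.75 (SE 1.21, 1.09 and 0.94) without passing the threshold. They were near the floor, and Csf1r, the highest of them, averaged 1.20 CPM in libraries labelled Il17ra-/- and 0.714 CPM in wild type libraries. Lyz2 averaged 8.26 and 9.17 CPM in the same order (log2 −0.15, SE 0.23) and did not pass.

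Set against the fibre genes of the same library, the members differed in whether the groups of libraries still separated. The fibre sum itself averaged 4653 CPM in libraries labelled Il17ra-/- and 2619 CPM in wild type libraries, without overlap. A gene with equal CPM in both groups is therefore lower on this scale in libraries labelled Il17ra-/-. How often all tested genes separate on this scale was not tested. Hspb7 stood at 19.9 ± 4.06 per 1000 CPM of fibre genes in libraries labelled Il17ra-/- and 13.2 ± 1.40 in wild type libraries, and the ranges of 14.9 to 25.6 and 11.4 to 14.7 did not overlap. Hspb6 stood at 23.9 ± 4.17 per 1000 in libraries labelled Il17ra-/- and 18.8 ± 3.97 in wild type libraries, with overlap. Bag3 stood at 27.1 ± 3.30 per 1000 in libraries labelled Il17ra-/- and 109 ± 39.5 in wild type libraries, while Hspb8 stood at 37.9 ± 4.26 in libraries labelled Il17ra-/- and 98.7 ± 44.4 in wild type libraries, both without overlap. Hspb1, which overlapped in CPM, stood at 7.57 ± 1.07 in libraries labelled Il17ra-/- and 20.6 ± 5.12 in wild type libraries, without overlap. Cryab stood at 37.6 ± 6.31 in libraries labelled Il17ra-/- and 55.3 ± 8.60 in wild type libraries, with overlap, and so was lower on this scale while its log2 fold change in CPM was 0.29. Hspb2 and Hspb3 overlapped on this scale as they did in CPM. Wild type replicate 4 had the lowest fibre sum of all 9 libraries, 1420 CPM, and was also the lowest for Hspb6, Hspb7, Cryab and Hspb2. Among libraries labelled Il17ra-/-, replicate 1 had the lowest fibre sum, 4015 CPM, and the highest Hspb6. The part of muscle fibre, smooth muscle and pericyte content in the values of Hspb6 and Hspb7 was not tested.

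**Figure D4:**
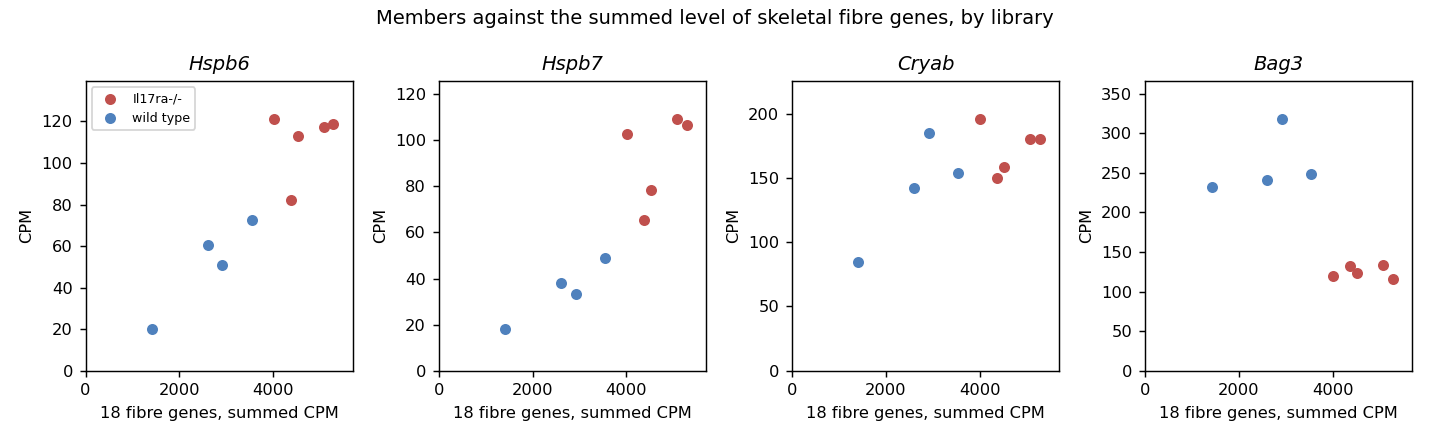
CPM of Hspb6, Hspb7, Cryab and Bag3 (vertical axes) against the summed CPM of the 18 skeletal fibre genes (horizontal axes) in each library labelled Il17ra-/- (red, n = 5) and each wild type library (blue, n = 4). The libraries labelled Il17ra-/- lie to the right, between 4015 and 5281 CPM, and are above the wild type libraries for Hspb6 and Hspb7 and below them for Bag3.

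The heat shock factors and other heat shock chaperones with their co-chaperones, including the mitochondrial chaperonin genes Hspd1 and Hspe1, gave 22 tested genes, of which 8 fell in libraries labelled Il17ra-/- and none rose, with a median log2 fold change of −0.35. Dnajb1, an HSP40 that delivers clients to HSP70 and is a classic heat shock target, had 92.2 to 137 CPM in libraries labelled Il17ra-/- and 281 to 400 CPM in wild type libraries (log2 −1.61, SE 0.15, edgeR adjusted p = 1.11e-04). The HSP40 gene Dnaja1 had a log2 fold change of −1.18 (edgeR adjusted p = 5.49e-04) and the HSP110 gene Hsph1 one of −1.06 (edgeR adjusted p = 0.00125). Hsp90aa1, the inducible HSP90, averaged 165 ± 24.0 CPM in libraries labelled Il17ra-/- and 316 ± 49.3 CPM in wild type libraries (log2 −0.94, edgeR adjusted p = 0.00158). Hspa2, Dnajb4, the HSP90 co-chaperone Fkbp4 and Dnajb2 also fell, with log2 fold changes of −1.10, −0.85, −0.63 and −0.49. The call of Dnajb2 was lost with library totals, with the replicate block and without wild type replicate 1 or 3 or Il17ra-/- replicate 1, 2, 3 or 4, at −0.51 to −0.43. Hsf1 itself had a log2 fold change of −0.17 (edgeR adjusted p = 0.481) and did not pass. Without both libraries that stood apart the count was again 8, and over all alternatives it was 7 to 10.

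The partners of BAG3 in chaperone-assisted autophagy did not share 1 direction. Of 16 tested, 3 fell, 2 rose and the median log2 fold change was 0.02. Hspa8, the constitutive HSP70, averaged 711 ± 111 CPM in libraries labelled Il17ra-/- and 1263 ± 63.1 CPM in wild type libraries (log2 −0.83, edgeR adjusted p = 0.00163). The inducible HSP70 genes Hspa1a and Hspa1b had log2 fold changes of −0.99 (edgeR adjusted p = 0.0207) and −1.04 (edgeR adjusted p = 0.0273), and since they are near-identical copies the split of reads between them is uncertain. Both calls were lost without wild type replicate 3 (−0.89 and −0.93) or without Il17ra-/- replicate 1, 2 or 3 (−0.99 to −0.88 for Hspa1a), and that of Hspa1b also without wild type replicate 1 (−0.96) or Il17ra-/- replicate 5 (−1.08) and with the replicate block (−1.16). Synpo2, a Z-disc protein that binds BAG3, averaged 87.7 ± 10.9 CPM in libraries labelled Il17ra-/- and 45.0 ± 12.9 CPM in wild type libraries (log2 0.96, edgeR adjusted p = 0.00791). Vps18, a vesicle fusion subunit, had a log2 fold change of 0.59 (edgeR adjusted p = 0.0482), and this call was lost in 12 of 18 alternatives, including each one that left out a single library (0.50 to 0.67). Stub1, the gene of the ligase CHIP, had a log2 fold change of −0.17 (edgeR adjusted p = 0.466), and the client Flnc one of 0.32 (edgeR adjusted p = 0.239). Without both libraries that stood apart the counts were 3 lower and 1 higher.

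Of 12 tested filament and Z-disc clients, 4 rose and none fell, with a median log2 fold change of 0.78. Actn2, the Z-disc alpha-actinin, averaged 123 ± 25.3 CPM in libraries labelled Il17ra-/- and 35.2 ± 17.6 CPM in wild type libraries (log2 1.81, edgeR adjusted p = 0.00284). Csrp3, Myot and Ldb3, all Z-disc genes, had log2 fold changes of 1.45, 1.10 and 0.97 with edgeR adjusted p of 0.0383, 0.0406 and 0.0449, and each lost its call in 9 of 18 alternatives. Values of Csrp3 overlapped between the groups, at 12.6 to 37.1 CPM in libraries labelled Il17ra-/- and 4.48 to 13.9 CPM in wild type libraries. Desmin, encoded by Des, averaged 227 ± 17.2 CPM in libraries labelled Il17ra-/- and 147 ± 38.5 CPM in wild type libraries (log2 0.62, edgeR adjusted p = 0.0583), short of the threshold. These are fibre genes too, and the sums of fibre markers given above moved with them. Without both libraries that stood apart 3 rose. The count was 1 without wild type replicate 3 or Il17ra-/- replicate 1, 2, 3 or 4, it was 2 without wild type replicate 2 or 4 or Il17ra-/- replicate 5, and it was 7 without wild type replicate 1, with DESeq2 or with limma-voom. With library totals or without the low-count filter it was 8.

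None of 14 autophagy genes and none of the 5 other BAG genes passed edgeR's threshold. The smallest p among the autophagy genes belonged to Map1lc3b, an LC3 gene, with a log2 fold change of −0.38 (edgeR adjusted p = 0.0988), and at an unadjusted p under 0.05 2 autophagy genes and 1 other BAG genes passed. Over the alternatives 0 to 1 autophagy genes and no other BAG gene were called. Bag1, Bag4 and Bag6 had log2 fold changes of −0.18, 0.41 and 0.09. The lens and testis small heat shock genes Cryaa, Hspb9 and Odf1 did not pass the low-count filter, and Cryaa had no count in any library.

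**Figure D5:**
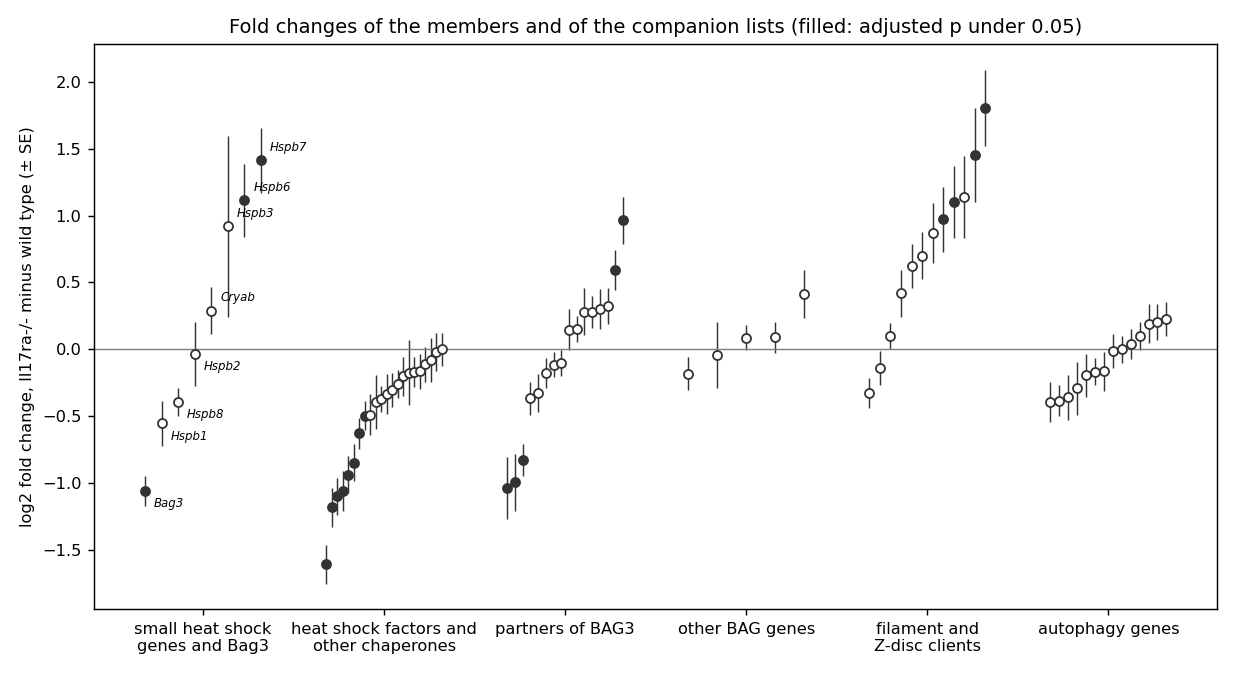
Log2 fold changes of libraries labelled Il17ra-/- minus wild type libraries (vertical axis, ± SE) for each tested gene of the 6 groups on the horizontal axis, filled where the edgeR adjusted p was under 0.05. Bag3 lies at −1.06 and Hspb7 at 1.41 within the first group, 8 genes of the list of heat shock factors and other chaperones lie filled below 0, and 4 filament and Z-disc genes lie filled above 0.

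As a description of likeness, Pearson correlations of log2(CPM + 1) were taken over the 9 libraries between each member and 10529 genes with a mean of at least 5 CPM. The 9 points include the difference between the groups and share library depth, so a difference between the groups that both genes have enters r. Closest to Bag3 were Cdkn1a (r = 0.990), Sertad1 (0.989) and Dnajb1 (0.988), and closest to Hspb8 were Myc (0.996), Ube2s (0.985) and Has1 (0.983). Closest to Hspb7 were Gys1 (0.993), Myoz2 (0.990) and Mb (0.989), and closest to Hspb6 were Ldb3 (0.984), Mb (0.983) and Myoz2 (0.982), so Mb, the myoglobin gene, and Myoz2, a Z-disc gene, appeared for both. For Hspb1 they were Asb4 (0.949), Chchd7 (0.936) and Them4 (0.931), and for Cryab Asb16 (0.945), Gyg (0.935) and Hoxa9 (0.931). For Hspb2 they were Pex2 (0.960), Tmem134 (0.957) and Asb16 (0.915), and for Hspb3 Fcf1 (0.960), Aph1b (0.931) and Dclk1 (0.905).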

How the data were processed

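Deposited files gave 1 whole-number read count per gene and library, from STAR alignment per the submitters' processing notes and featureCounts 1.6.0 on GENCODE M21 per the file headers. Libraries came from an unstranded TruSeq v2 kit, with RNA integrity above 8.0 per the labels. The settings for reads that map to several places are not given in the sources used here.

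Gene symbols were taken from the GENCODE M21 annotation, and all 55536 identifiers matched. No 2 libraries were identical. Genes passing edgeR's expression filter (16039) were fitted together for all 9 libraries in R 4.3.3 with edgeR 4.0.16 (TMM scaling, quasi-likelihood test, 2-sided, no covariates). P-values were adjusted over all tested genes by Benjamini-Hochberg, and called means an adjusted p under 0.05. CPM values used TMM-scaled library sizes, and levels per kilobase divided them by merged exon length. The fit was tested on simulated data. DESeq2 1.42.0 and limma 3.58.1, other scalings and filters, a replicate block and left-out libraries were alternatives.

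The members, companion lists, marker lists and alternatives were chosen with earlier results of these data known. Named were all members, companion genes that were called or had up to 3 of the smallest p of a list without calls, tissue-defining markers, the 3 genes most like each member, and annotated neighbours. Stub1, Flnc, Des and Hsf1 were named beyond this rule after their values were seen, for their roles. Windows around starts were RefSeq's. P-values measure the spread between these libraries only.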

Additional observations from a re-analysis of the deposited data

Results flagged for a closer look

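Among 62 groups of values examined, 3 held a library far from the rest of its group by Dixon's gap criterion, which chance alone meets in about 1 in 20 groups. Hspb6 was low in Il17ra-/- replicate 5, at 82.3 CPM, with the other 4 libraries labelled Il17ra-/- between 113 and 121 CPM. Gabarap was high in wild type replicate 2, at 405 CPM. Map1lc3a was high in the same library, at 152 CPM.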

How the results depend on the processing

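The members were chosen with this contrast known, so their calls under refits of the same libraries are no support for them. Calls over all genes numbered 491, against 1017 with DESeq2 and 275 to 567 when single libraries were left out, with 275 without Il17ra-/- replicate 3 and 323 without Il17ra-/- replicate 1. Members called higher numbered 1 without both libraries that stood apart and 1 to 2 with single libraries left out. Members called lower numbered 2 with the 1-CPM filter, 3 with DESeq2, 2 with limma-voom and 1 to 2 with single libraries left out. Companion genes called numbered 17, against 10 to 18 with single libraries left out, and 10 each without Il17ra-/- replicate 1, 2 or 3 or wild type replicate 3.

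Hspb1 passed with DESeq2 (−0.55) and without wild type replicate 4 (−0.70), and it ranged from −0.70 to −0.40 with single libraries left out. Hspb2 changed sign with library totals (0.026), limma-voom (0.022), the replicate block (0.037) and without both libraries that stood apart (0.10), and ranged from −0.21 to 0.16 with single libraries left out. Hspb6 lost its call without both libraries that stood apart (1.08) and ranged from 0.85 to 1.34 with single libraries left out. Hspb8 passed with the 1-CPM filter (−0.40), DESeq2 (−0.39) and limma-voom (−0.39). The cause of these changes was not tested.

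With the replicate number as a block (replicate block), 363 genes were called, against 491 without it. Libraries of the same number in the 2 groups correlated at −0.03, −0.01, 0.06 and 0.04 for replicates 1 to 4 after group means were removed. Replicates 3 and 4 correlated best with their own number, and replicates 1 and 2 did not. With all of these values near 0, the check cannot settle whether the numbers pair the libraries. The 4 and 5 libraries limit the precision of every comparison.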
